A study of Mus musculus with 10 samples.

Results

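The 5'-most exon bins of expressed genes in mouse cerebral cortex were compared between animals that lack Usp7 in glutamatergic neurons and animals that keep it. An exon bin is a stretch of exon cut at every annotated exon edge, as counted for the DEXSeq method. For each gene with 5 or more bins, the bin nearest the annotated 5' end was taken on the gene's strand and kept where its mean count over all 10 libraries was at least 10. Of 21540 genes with 5 or more bins, 4774 had such a first bin, out of 458337 bins in 51612 gene groups, and in the remaining 16766 the first bin fell under that mean. The choice used the mean count over both genotypes and not the difference between them. Of the members, 165 had a mean under 10 in Usp7 WT only and 127 in Usp7 cKO only, so these passed the threshold through the other genotype, where they are high. Just inside the threshold, 24 bins within 0.1 count of it took a median of 0.730% of their gene's counts (0.743% in Usp7 cKO). The 26 bins just outside took 1.21% and 0.887%.

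A gene can be transcribed from several promoters, and each promoter gives its own first exon. The first exon carries the start of the untranslated leader and in some genes also the first codons, so a change of start can change translation, stability or the amino terminus of the protein. In neurons many synaptic, cytoskeletal and RNA-binding proteins are made from alternative starts. The share of a gene's counts that falls in the first bin is a readout of that choice in RNA that covers whole transcripts, and it is not a direct map of start sites.

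USP7 is a deubiquitinase that removes ubiquitin from proteins such as the p53 ligase MDM2. Usp7 fl/fl mice were crossed to NEX-cre, a driver active in glutamatergic neurons of the forebrain and carried by the Neurod6 locus. The groups were 5 Usp7 cKO; Trp53+/- and 5 Usp7 WT; Trp53+/- animals at 18 days of age, so both groups carried a single working Trp53 allele, and whether the Usp7 WT animals carried Cre is not given in the sources used here. Total cortical RNA was depleted of ribosomal RNA and copied with random hexamers, which covers the gene body and does not enrich 5' ends.

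Sequences are shown for called members whose upstream stretch or first codons could be read from the references used here. Upstream stretches are the 150 bases before the 5' edge of the bin, on the gene's strand and 5' to 3', from RefSeq promoters (GRCm38.p6), and capitals mark CpG pairs. They show how different the stretches before first bins were, from CpG-dense to almost CpG-free.
Olfm2, chr9:20746350-20746499, minus strand: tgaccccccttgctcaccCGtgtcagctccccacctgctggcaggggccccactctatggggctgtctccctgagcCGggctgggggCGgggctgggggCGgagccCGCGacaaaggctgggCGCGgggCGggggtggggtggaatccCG
Fmnl1, chr11:103170957-103171106, plus strand: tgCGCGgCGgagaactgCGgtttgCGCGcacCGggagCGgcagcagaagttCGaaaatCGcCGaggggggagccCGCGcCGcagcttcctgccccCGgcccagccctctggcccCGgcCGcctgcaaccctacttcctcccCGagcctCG
Osbp2, chr11:3863904-3864053, minus strand: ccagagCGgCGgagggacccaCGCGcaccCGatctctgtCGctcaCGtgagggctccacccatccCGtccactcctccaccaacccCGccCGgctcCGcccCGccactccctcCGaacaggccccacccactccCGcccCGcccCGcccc
Cadps2, chr6:23839422-23839571, minus strand: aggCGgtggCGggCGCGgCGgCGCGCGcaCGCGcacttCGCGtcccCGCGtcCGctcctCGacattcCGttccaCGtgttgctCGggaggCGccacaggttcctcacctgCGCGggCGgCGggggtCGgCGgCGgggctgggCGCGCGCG
Kiss1r, chr10:79916821-79916970, plus strand: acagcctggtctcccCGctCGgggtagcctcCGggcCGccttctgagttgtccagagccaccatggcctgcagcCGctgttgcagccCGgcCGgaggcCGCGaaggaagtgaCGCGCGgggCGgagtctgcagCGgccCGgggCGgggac
Mef2c, chr13:83503884-83504033, plus strand: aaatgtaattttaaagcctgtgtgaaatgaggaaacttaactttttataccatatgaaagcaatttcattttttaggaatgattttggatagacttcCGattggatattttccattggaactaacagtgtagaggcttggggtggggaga
The Cadps2 stretch held 31 CpG pairs at 79.3% G and C, and the Mef2c stretch held 1 CpG pair at 34.0%. Of the 4774 members, 2246 had a RefSeq start in the bin and 1951 had the full stretch, among them 10 called members, 5 used more and 5 used less. The median ratio of observed to expected CpG was 0.801 over the 1951 members and 0.405 over all 32851 promoters of the table cut to the same length. It was 0.933 over the 5 called bins used more and 0.737 over the 5 used less. The motif TATAAA, searched on both strands, was present in 1 of the 10 (Mef2c), in 3.08% of the 1951 members and in 7.57% of all promoters. The E-box letters CANNTG were present in 3 of the 5 used more, in 1 of the 5 used less, in 34.5% of the 1951 members and in 47.7% of all promoters. The cAMP response element was in 0 of the 10, in 2.41% of the 1951 members and in 1.36% of all promoters.

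In 7 called members the bin overlapped coding sequence, and the codons that such a bin adds are shown for 2 that were used more in Usp7 cKO. Each run starts at the annotated start codon, which is in capitals, and ends at the exon edge or after 90 bases (GENCODE M21, GRCm38, spliced transcripts).
Olfm2-203, chr9:20746171-20746239, minus strand: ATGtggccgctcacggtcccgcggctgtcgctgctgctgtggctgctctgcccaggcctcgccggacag
Dgkz-202, chr2:91975689-91975778, minus strand: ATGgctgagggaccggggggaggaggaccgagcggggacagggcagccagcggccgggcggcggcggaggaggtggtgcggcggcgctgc
The first bin holds 69 coding bases in Olfm2-203 and 212 in Dgkz-202.

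Usp7 itself was 53.5, 50.2, 55.7, 48.3 and 61.9 TPM in Usp7 WT replicates 1 to 5 and 31.6, 36, 40.9, 35.3 and 40.9 TPM in Usp7 cKO replicates 1 to 5, lower without overlap (limma adjusted p = 0.00131). The libraries held 42628526 to 51797145 bin counts each. The members took 2.64 to 2.96% of their genes' counts in Usp7 WT libraries and 2.72 to 2.90% in Usp7 cKO libraries, so the summed share overlapped between genotypes. A pair of libraries went against their labelled sex. The library labelled Usp7 WT replicate 2 (female) held 0.0478 TPM of Xist and 22.8 TPM of the Y-linked Ddx3y, and the library labelled Usp7 cKO replicate 1 (male) held 116 and 0.0523 TPM. By these 2 genes, Usp7 WT replicates 2, 3 and 4 and Usp7 cKO replicate 4 were male and the other libraries female. Sex was thus not balanced between the genotypes, and the fits used the labelled sex or none. Results are given with and without the sex-discordant pair. The library identifiers follow the genotypes in order, and these 2 factors cannot be told apart. In tissue RNA, fewer cells of a type and less RNA per cell cannot be told apart. All 5 glutamatergic markers tested fell in Usp7 cKO (summed level 3063 to 3402 TPM in Usp7 WT, 2193 to 2648 in Usp7 cKO), as did all 3 microglial markers (105 to 118 against 73.5 to 87.7 TPM), and 0 of 16 markers of other types were called (limma adjusted p over all genes). Neurod6, which is among these 5 markers, went from 52.1 ± 1.97 to 24.2 ± 2.46 TPM (n = 5). It is also the locus of the driver, so its level cannot be read as cell makeup alone. No marker was at 0 in any library, and the part of these shifts in the results below was not tested.

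A small share of first bins differed in use between the genotypes, in both directions. Each bin was compared with the rest of its own gene, so a change of the whole gene does not count, with edgeR's quasi-likelihood test and Benjamini-Hochberg adjustment over 228098 bins. Of 4708 members tested, 39 were called at an adjusted p under 0.05, which is 0.828%, and 0.43% of all bins tested were called. Of these, 26 were used more in Usp7 cKO (0.331% of all bins were called in that direction) and 13 were used less (0.0986% of all bins). The count depended on the test: DESeq2 called 19 members, 18 of them among the 39 (0.178% of all bins called), and a limma test of the log2 ratio of the bin to the rest of the gene called 3 (0.0197% of all bins). Each of the 39 kept its direction with both tools. The other 66 members were not tested, since their gene had no further bin at that mean. The median relative log2 change over the members tested was -0.0075, and over all bins tested it was -0.00054. Last bins of genes, chosen by the same rule at the 3' end, were called in 40 of 7100 (0.563%). Without the pair of sex-discordant libraries 24 members were called, 22 of them among the 39, and 0.225% of all bins. In 30 of the 39 the shares of both genotypes did not overlap, and over all tested members 108 did not overlap, where 1.65% of all bins did not.

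**Figure D1:**
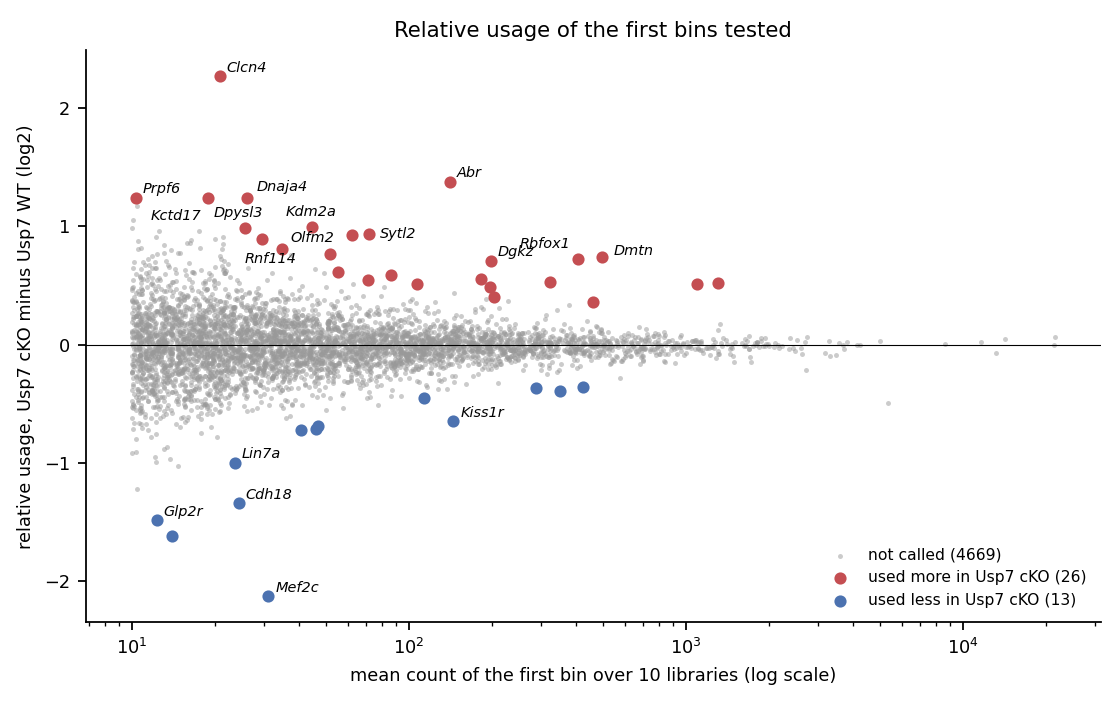
Relative usage of each of the 4708 first bins tested (vertical axis, log2, Usp7 cKO minus Usp7 WT, relative to the rest of the gene) against its mean count over 10 libraries (horizontal axis, log scale). Coloured points are the 26 bins called as used more and the 13 called as used less. Clcn4 lies highest at 2.27 and Mef2c lowest at -2.13 among the members tested. Each of these had a mean count under 10 in the genotype where it is lower and passed the threshold through the other.

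The called bins took from 0.0914 to 38.6% of their gene's counts in Usp7 WT. This share depends on the width of the bin too, so it does not rank starts. In 15 of the 39 the bin took under 1% of the gene's counts in Usp7 WT. Log2 changes ran from 0.36 to 2.27 in the bins used more, with a median of 0.73, and from -2.13 to -0.36 in those used less, with a median of -0.71. Of the 39, 5 had a mean count under 10 in 1 genotype only (Clcn4 and Prpf6 in Usp7 WT, and Mef2c and Glp2r among those in Usp7 cKO). The threshold itself shifts such members. The median log2 change was 0.28 over all tested members under 10 in Usp7 WT only and -0.31 over those under 10 in Usp7 cKO only. Of all 39, 15 stayed called with each library left out in turn and 24 lost the call without at least 1 library. Among the 15 are Abr, Dmtn, Clcn4, Rbfox1, Mef2c, Dgkz, Olfm2, Sytl2, Osbp2, Kdm2a, Cdh18, Dnaja4, Fmnl1 and Kiss1r, and these 14, all called by DESeq2 too, are described first. With the limma ratio test Abr, Sytl2 and Kiss1r alone were called, and these are the 3 called under every alternative run. The others of the 14 had limma adjusted p from 0.0562 (Rbfox1) to 0.175 (Fmnl1). Of the 24, DESeq2 called 4 (Adra2a, Nsg1, Pakap and Ubald1).

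Of the first bins used more in Usp7 cKO, that of Abr, which both activates and inactivates small GTPases, had the smallest p. Its first bin (chr11:76622177-76623558, minus strand, start of Abr-211, no coding sequence) took 0.222, 0.215, 0.204, 0.171 and 0.21% of the gene's counts in Usp7 WT replicates 1 to 5 and 0.532, 0.541, 0.56, 0.432 and 0.607% in Usp7 cKO replicates 1 to 5. All Usp7 cKO libraries lay above all Usp7 WT libraries, and the mean rose from 0.204 ± 0.0199% to 0.534 ± 0.0643% (SD, n = 5, log2 1.38). The edgeR adjusted p was 8.91e-28, with the spread pooled over the bins of the gene, and the limma ratio test gave an adjusted p of 0.0079. Dgkz is diacylglycerol kinase zeta, which turns the lipid messenger diacylglycerol into phosphatidic acid. Its first bin (chr2:91975567-91975864, minus strand), which carries the codons of Dgkz-202 shown above, took 0.336, 0.32, 0.317, 0.377 and 0.373% in Usp7 WT and 0.534, 0.574, 0.57, 0.581 and 0.547% in Usp7 cKO. The groups did not overlap and were narrow, with means of 0.344 ± 0.0284% and 0.561 ± 0.0197% (log2 0.71, adjusted p = 6.8e-07).

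Dmtn, or dematin, bundles actin under the membrane, and its first bin (chr14:70635979-70636048, minus strand) is larger. It took 1.86, 2.14, 1.5, 2.37 and 1.92% in Usp7 WT and 3.23, 3.02, 2.93, 3.18 and 4.09% in Usp7 cKO, with Usp7 cKO replicate 5 the highest and no overlap (log2 0.74, edgeR adjusted p = 1.77e-11). Fmnl1 is a formin that elongates actin filaments. Its first bin (chr11:103171107-103171312, plus strand), downstream of the CpG-rich stretch shown above, took 1.86, 1.76, 2.08, 2.17 and 1.65% in Usp7 WT and 2.62, 2.7, 2.88, 2.53 and 3.31% in Usp7 cKO, again without overlap (log2 0.55, edgeR adjusted p = 0.000105).

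The largest log2 rise of the members tested was in Clcn4, a chloride and proton exchanger of endosomes. Its first bin (chr7:7300651-7300851, minus strand, start of Clcn4-207, no coding sequence) has a mean count of 20.7, under the 30 that the naming rule asks, and is described because its values were seen. It took 0.137, 0.0618, 0.142, 0.0258 and 0.0986% in Usp7 WT and 0.519, 0.398, 0.409, 0.432 and 0.53% in Usp7 cKO. The lowest Usp7 cKO library was above the highest Usp7 WT library (means 0.093 ± 0.0495% and 0.458 ± 0.0623%, n = 5, log2 2.27, edgeR adjusted p = 4.53e-11).

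Sytl2 is a synaptotagmin-like protein that binds Rab GTPases on secretory vesicles. Its first bin (chr7:90302252-90302743, plus strand, start of Sytl2-211) took 1.69, 1.8, 1.91, 2.15 and 2.09% in Usp7 WT and 3.5, 3.56, 4.32, 3.04 and 3.89% in Usp7 cKO. No library overlapped with the other genotype, and the mean went from 1.93 ± 0.191% to 3.66 ± 0.476% (n = 5, log2 0.94, edgeR adjusted p = 3.18e-06). Olfm2 is a secreted olfactomedin. Its first bin (chr9:20746171-20746349, minus strand), with the codons of Olfm2-203 shown above, took 0.552, 0.578, 0.545, 0.749 and 0.723% in Usp7 WT and 1.06, 1.4, 1.0, 1.04 and 1.51% in Usp7 cKO, a rise in all 5 Usp7 cKO libraries over all Usp7 WT libraries (log2 0.92, edgeR adjusted p = 2.88e-06). Osbp2, an oxysterol-binding protein, is named after its values were seen. Its first bin (chr11:3863233-3863903, minus strand) took 3.83, 4.0, 3.59, 3.84 and 3.97% in Usp7 WT and 5.63, 5.22, 4.77, 6.32 and 5.97% in Usp7 cKO, without overlap (log2 0.53, edgeR adjusted p = 9.21e-06).

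Rbfox1, a splicing regulator of neurons with several promoters, had 1.78, 1.53, 1.48, 1.8 and 1.95% in its first bin (chr16:5885355-5885586, plus strand, start of Rbfox1-205) in Usp7 WT and 2.58, 2.92, 3.15, 2.45 and 3.0% in Usp7 cKO. The groups were apart, with means of 1.71 ± 0.195% and 2.82 ± 0.294% (n = 5, log2 0.72, edgeR adjusted p = 1.33e-09). Kdm2a is a histone demethylase that binds unmethylated CpG. Its first bin (chr19:4397934-4398285, minus strand) took 0.632, 0.457, 0.552, 0.592 and 0.593% in Usp7 WT and 0.853, 1.01, 1.62, 0.987 and 1.23% in Usp7 cKO, where replicate 3 was the highest and no library overlapped (log2 1.0, edgeR adjusted p = 2.48e-05). Dnaja4, a co-chaperone of Hsp70 proteins named after its values were seen, rose from 2.03 ± 0.637% to 4.78 ± 1.13% in its first bin (chr9:54698873-54699413, plus strand), with 2.85, 2.39, 1.14, 1.93 and 1.86% in Usp7 WT and 3.85, 6.55, 4.64, 3.77 and 5.11% in Usp7 cKO (log2 1.24, edgeR adjusted p = 4.18e-05).

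Of the bins used less, 3 stayed called with each library left out. Mef2c, a MADS-box transcription factor of cortical neurons, had the largest log2 fall of the members tested. Its first bin had a mean count under 10 in Usp7 cKO and passed the threshold through Usp7 WT. The bin (chr13:83504034-83504205, plus strand, start of Mef2c-218), next to the CpG-poor stretch shown above, took 0.056, 0.0972, 0.0768, 0.0602 and 0.167% in Usp7 WT and 0.0288, 0.0194, 0.0214, 0.00997 and 0.0227% in Usp7 cKO. Usp7 WT replicate 5 was the highest and all Usp7 cKO libraries lay below all Usp7 WT libraries (means 0.0914 ± 0.0452% and 0.0205 ± 0.00682%, n = 5, log2 -2.13, edgeR adjusted p = 3.01e-09). Cdh18, a neuronal cadherin named after its values were seen, had 1.73, 1.42, 1.87, 2.41 and 2.15% in its first bin (chr15:22549022-22549292, plus strand) in Usp7 WT and 0.547, 0.565, 0.745, 0.979 and 0.832% in Usp7 cKO, with no overlap (log2 -1.34, edgeR adjusted p = 3.77e-05). Kiss1r, the kisspeptin receptor, had the largest fall in percentage points among the members called. Its first bin (chr10:79916971-79918673, plus strand, start of Kiss1r-201 and Kiss1r-203) took 36.2, 36, 43.1, 37.7 and 39.8% in Usp7 WT and 22.7, 22.7, 26.9, 25.3 and 25.6% in Usp7 cKO, all 5 lower (log2 -0.65, edgeR adjusted p = 0.000423). This bin overlaps a bin of another gene, and the counting strand is not given in the sources used here, so reads of either gene may be counted in it.

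**Figure D2:**
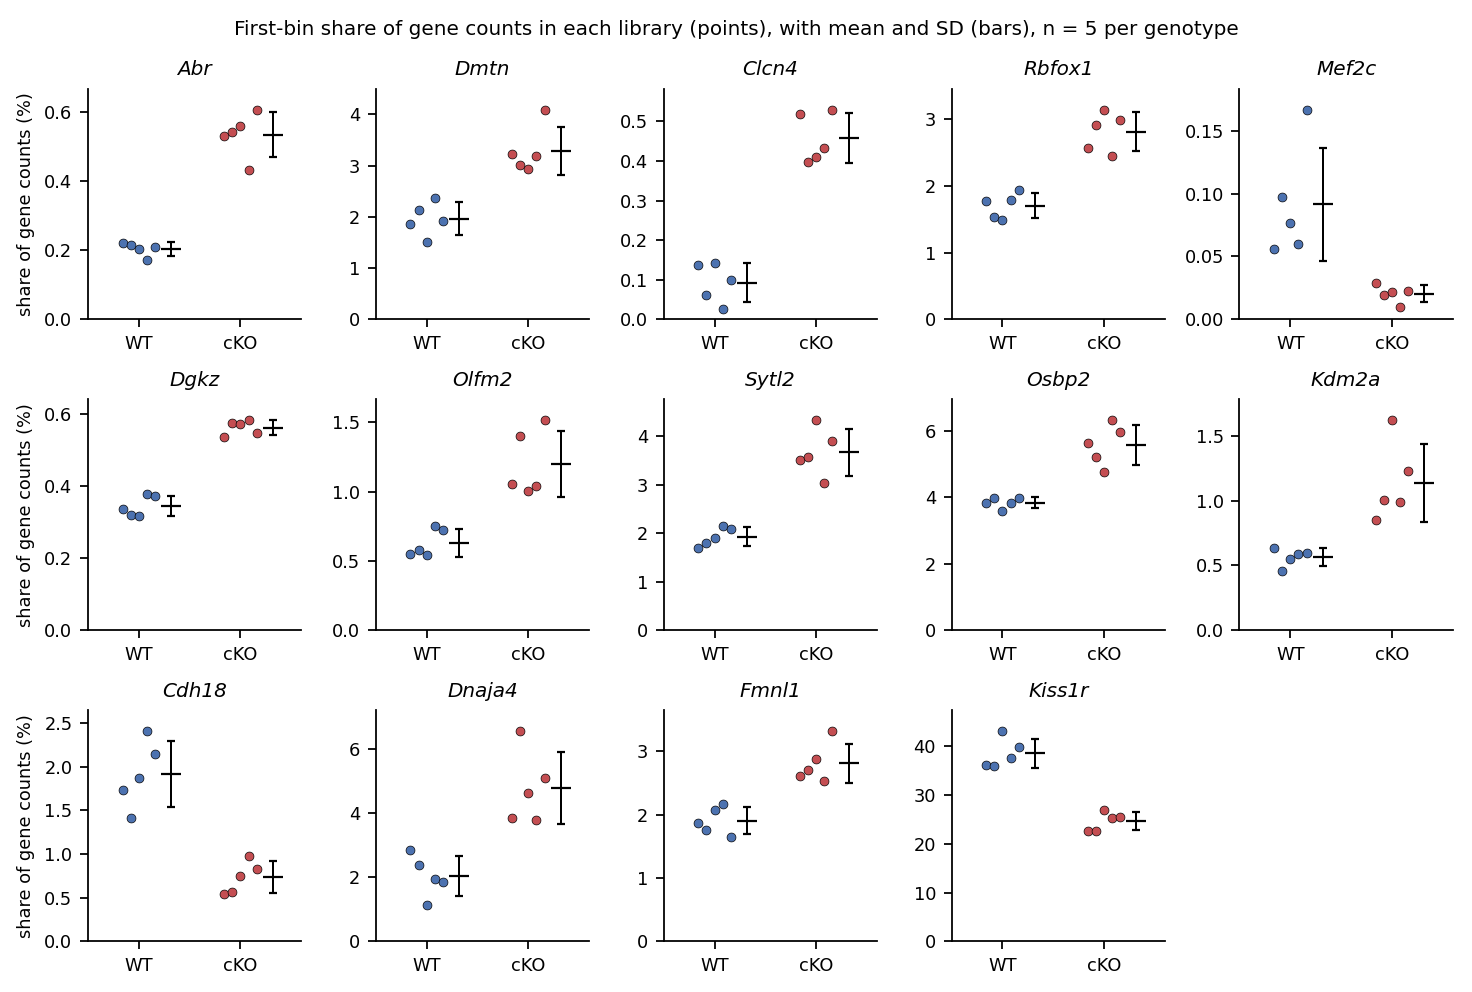
Share of the gene's counts in the first bin (vertical axes, %, from 0) in each library of Usp7 WT (blue) and Usp7 cKO (red) for 14 members called with each library left out in turn. Points are libraries and bars the mean and SD of 5; the genotypes do not overlap in any of the 14 panels.

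The other 14 bins used more in Usp7 cKO lost their call without at least 1 library. Adra2a, an adrenergic receptor that inhibits transmitter release, rose from 3.48 ± 0.52% to 5.86 ± 0.783% (n = 5, log2 0.76, edgeR adjusted p = 0.00251) and lost its call without Usp7 cKO replicate 4 (adjusted p = 0.0758). Pakap, a locus that joins the paralemmin Palm2 to a kinase-anchoring protein, rose from 10.9 ± 1.35% to 16.3 ± 0.945% at the start of Palm2-202 (log2 0.59, edgeR adjusted p = 0.00889), with adjusted p up to 0.0718 without Usp7 cKO replicate 5 or Usp7 WT replicate 5. For both genes all Usp7 cKO libraries lay above all Usp7 WT libraries.

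Cadps2, a priming factor of dense-core vesicles, has a first bin of 1 base (chr6:23839421-23839421, minus strand). It took 11, 6.31, 8.0, 12.4 and 9.31% in Usp7 WT and 11.7, 12.1, 8.46, 13.9 and 20.6% in Usp7 cKO, so the groups overlapped and Usp7 cKO replicate 5 stood highest (log2 0.52, edgeR adjusted p = 0.00135). Its call was lost without Usp7 cKO replicate 5 or Usp7 WT replicate 2 (adjusted p up to 0.527). A bin of 1 base with a mean count of 1305 holds reads that run into the next bin (mean count 1354), so adjoining bins share reads.

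Kctd17, a BTB-domain adaptor, went from 0.0974 to 0.228% and overlapped between groups (log2 1.24, edgeR adjusted p = 0.00236, up to 0.283 without Usp7 cKO replicate 4 or 5). Ubald1 went from 3.97 to 5.54% (log2 0.49, edgeR adjusted p = 0.00994, up to 0.10 without Usp7 cKO replicate 4 or Usp7 WT replicate 4). The ubiquitin ligase Rnf114 went from 1.34 to 2.47% in a bin that overlaps another gene (log2 0.90, edgeR adjusted p = 0.00851), and its call was lost without Usp7 cKO replicate 3, 4 or 5 or Usp7 WT replicate 1 (up to 0.0774). Each of these 3 was named after its values were seen.

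Klhl3, a substrate adaptor of cullin ubiquitin ligases, went from 9.83 ± 1.69% to 12.7 ± 1.1% (n = 5, log2 0.36, edgeR adjusted p = 0.0109), with overlapping groups. Its call was lost without Usp7 cKO replicate 2, 3 or 4 or Usp7 WT replicate 2 or 3 (adjusted p up to 0.298). Cpeb1, which binds cytoplasmic polyadenylation elements, went from 1.43 to 2.53% without overlap (log2 0.81), and its call was lost without Usp7 cKO replicate 1 or 5 or Usp7 WT replicate 2 or 3 (up to 0.103). Tmem67, a protein of the ciliary transition zone, went from 9.4 to 13.7% in a bin that overlaps another gene (log2 0.55); the call was lost without Usp7 cKO replicate 3 or 5 or Usp7 WT replicate 1, 2, 4 or 5 (up to 0.28). The endophilin Sh3gl2 went from 0.351 to 0.528% with overlapping groups (log2 0.61), and its call was lost without Usp7 cKO replicate 3, 4 or 5 or Usp7 WT replicate 1, 2, 3 or 4 (up to 0.492).

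The remaining rises were named after their values were seen. The microtubule protein Map7 went from 1.69 to 2.41%, the synaptic vesicle protein Syn1 from 0.52 to 0.693%, the spliceosome factor Prpf6 from 0.182 to 0.441% and the collapsin response mediator Dpysl3 from 0.399 to 0.802%. Groups did not overlap in Map7 and Syn1 and overlapped in Prpf6 and Dpysl3. The call of Map7 was lost without Usp7 cKO replicate 3 or 4 or Usp7 WT replicate 2 (adjusted p up to 0.116), and that of Syn1 without Usp7 cKO replicate 1, 3, 4 or 5 or Usp7 WT replicate 3 or 5 (0.197). Prpf6 stayed called only without Usp7 cKO replicate 3 or Usp7 WT replicate 3 (otherwise up to 0.422), and Dpysl3 only without replicate 5 of either genotype (0.256).

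The other 10 bins used less lost their call without at least 1 library. Nsg1, an endosomal protein of neurons, fell from 2.59 ± 0.198% to 1.97 ± 0.111% (n = 5, log2 -0.39, edgeR adjusted p = 0.00532, 0.095 without Usp7 WT replicate 4). Gabbr1, a subunit of the GABA-B receptor, fell from 0.14 ± 0.0224% to 0.0866 ± 0.0112% (log2 -0.69, edgeR adjusted p = 0.0197), and the sodium and calcium exchanger Slc8a1 from 0.39 ± 0.048% to 0.234 ± 0.0422% (log2 -0.71, edgeR adjusted p = 0.0193). In all 3 genes every Usp7 cKO library lay below every Usp7 WT library.

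Gprasp1, which sorts G protein-coupled receptors, fell from 2.77 to 2.14% (log2 -0.37). The mitochondrial carrier of ADP and ATP Slc25a4 fell from 0.273 to 0.165% (log2 -0.72), the autophagy protein Map1lc3a from 5.98 to 4.64% (log2 -0.36) and the endosomal GTPase Rab14 from 1.25 to 0.917% (log2 -0.45). None of these 4 overlapped between the genotypes. Calls of 6 of these genes were lost without single libraries. These were Usp7 cKO replicate 3, 4 or 5 or Usp7 WT replicate 1 or 5 for Gabbr1 (edgeR adjusted p up to 0.181) and Usp7 cKO replicate 1, 2 or 3 or Usp7 WT replicate 1 or 3 for Slc8a1 (0.159). They were Usp7 cKO replicate 1, 4 or 5 or Usp7 WT replicate 4 or 5 for Gprasp1 (0.198), and Usp7 cKO replicate 1, 2 or 3 or Usp7 WT replicate 1, 2 or 4 for Slc25a4 (0.174). For Map1lc3a they were Usp7 cKO replicate 1 or 5 or Usp7 WT replicate 1, 2, 4 or 5 (0.266), and Rab14 stayed called only without Usp7 cKO replicate 3 or Usp7 WT replicate 5 (0.204).

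Lin7a and Glp2r were named after their values were seen. The PDZ scaffold Lin7a fell from 1.55 ± 0.267% to 0.762 ± 0.111% in a bin of 20 bases (log2 -1.0, edgeR adjusted p = 0.0091), with adjusted p up to 0.0764 without Usp7 cKO replicate 1 or Usp7 WT replicate 3. The peptide hormone receptor Glp2r fell from 5.73 to 2.42% with overlapping groups (log2 -1.49, up to 0.0813 without Usp7 cKO replicate 2, 4 or 5).

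Without the pair of sex-discordant libraries, each of the 39 kept its direction and 17 lost the call. The 15 that stayed called with each library left out were all still called, with Abr at log2 1.32 (edgeR adjusted p = 1.71e-18), Clcn4 at 2.07 (adjusted p = 7.04e-07) and Mef2c at -2.42 (adjusted p = 4.11e-07). The 17 that lost it are Cadps2, Pakap, Lin7a, Ubald1, Klhl3, Glp2r, Map7, Cpeb1, Slc8a1, Slc25a4, Syn1, Tmem67, Map1lc3a, Rab14, Prpf6, Dpysl3 and Sh3gl2, with adjusted p from 0.0555 (Map7) to 0.612 (Dpysl3).

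Called first bins were found next to an intron and inside a longer exon alike. A first bin followed by an intron is a whole first exon, and 19 of 1966 such members were called (15 more, 4 less). A first bin that runs into the next bin is the 5' end of an exon with several starts or edges, and 20 of 2742 such members were called (11 more, 9 less). Of the 3449 members in genes with another annotated start over 500 bases downstream 32 were called (0.928%), and of the 1259 without one 7 were called (0.556%). The difference between these classes was not tested. Of the members with coding sequence 7 of 1431 were called, and of those without it 32 of 3277. An annotated transcript start (GENCODE M21) lay in the bin of 38 of the 39, the exception being Gprasp1.

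Bins that hold the other annotated starts of the same genes show where else in the gene a change was called. Such a bin can also hold reads of transcripts that start further upstream, so it does not measure use of that start. In 36 of the 39 genes, 193 other start bins were tested and 34 were called, 27 in the direction of the first bin and 7 against it. Of all bins tested 0.43% were called, but these genes were chosen for a called first bin, and neighbouring bins share reads. In Clcn4, 7 further bins that hold annotated starts were used more (log2 0.75 to 1.27). That of Clcn4-203 went from 0.401 ± 0.0747 to 0.977 ± 0.155% (SD, n = 5, log2 1.27, edgeR adjusted p = 4.94e-09). Those from chr7:7298692 to 7298806 adjoin and lie just past 7298836, the exon edge that reads spliced out of the first bin join. Transcripts from the first bin can thus fill them, and they are not separate evidence of other starts. In Mef2c, the bin where Mef2c-201, Mef2c-202, Mef2c-221 and Mef2c-229 start fell from 0.120 ± 0.00479 to 0.0224 ± 0.00628% (log2 -2.42, edgeR adjusted p = 1.53e-14), and that of Mef2c-223 fell from 0.346 to 0.218% (log2 -0.67).

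In Sytl2 upstream and downstream start bins moved in opposite directions. The start bins of Sytl2-202 and 3 other transcripts (log2 1.07), Sytl2-210 (0.99), Sytl2-201 and Sytl2-205 (1.1) and Sytl2-209 (1.52) were used more. The downstream start bins of Sytl2-215 (-0.68), Sytl2-213 (-0.83), Sytl2-219 (-0.84) and Sytl2-214 (-0.70) were used less (each at an edgeR adjusted p under 0.05). In all, 14 bins of Sytl2 were used more and 8 less. In Rbfox1 the adjacent start bin of Rbfox1-204 rose from 2.43 ± 0.307 to 3.63 ± 0.353% (log2 0.58, edgeR adjusted p = 1.03e-06). The downstream start bin of Rbfox1-208 fell from 0.527 ± 0.0718 to 0.324 ± 0.0494% (log2 -0.71, edgeR adjusted p = 0.00182).

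Abr, Dgkz and Dmtn had downstream start bins that moved as well. In Abr the start bins of Abr-208 (log2 0.43), Abr-201 (0.67) and Abr-206 (0.74) were used more, and in Dgkz those of Dgkz-208 (0.99) and Dgkz-207 (0.69). The change was not continuous along these genes. The Abr start bins tested between the first bin and that of Abr-208 were not called (log2 -0.07 to 0.24). Nor were the Dgkz start bins tested between the first bin and that of Dgkz-208. In Dmtn the next start bin, of Dmtn-209, fell from 0.170 to 0.0903% (log2 -0.91, edgeR adjusted p = 0.0329) while the first bin rose. In 23 of the 39 genes the first bin was the only bin called, Cdh18, Kdm2a and Olfm2 among them.

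**Figure D3:**
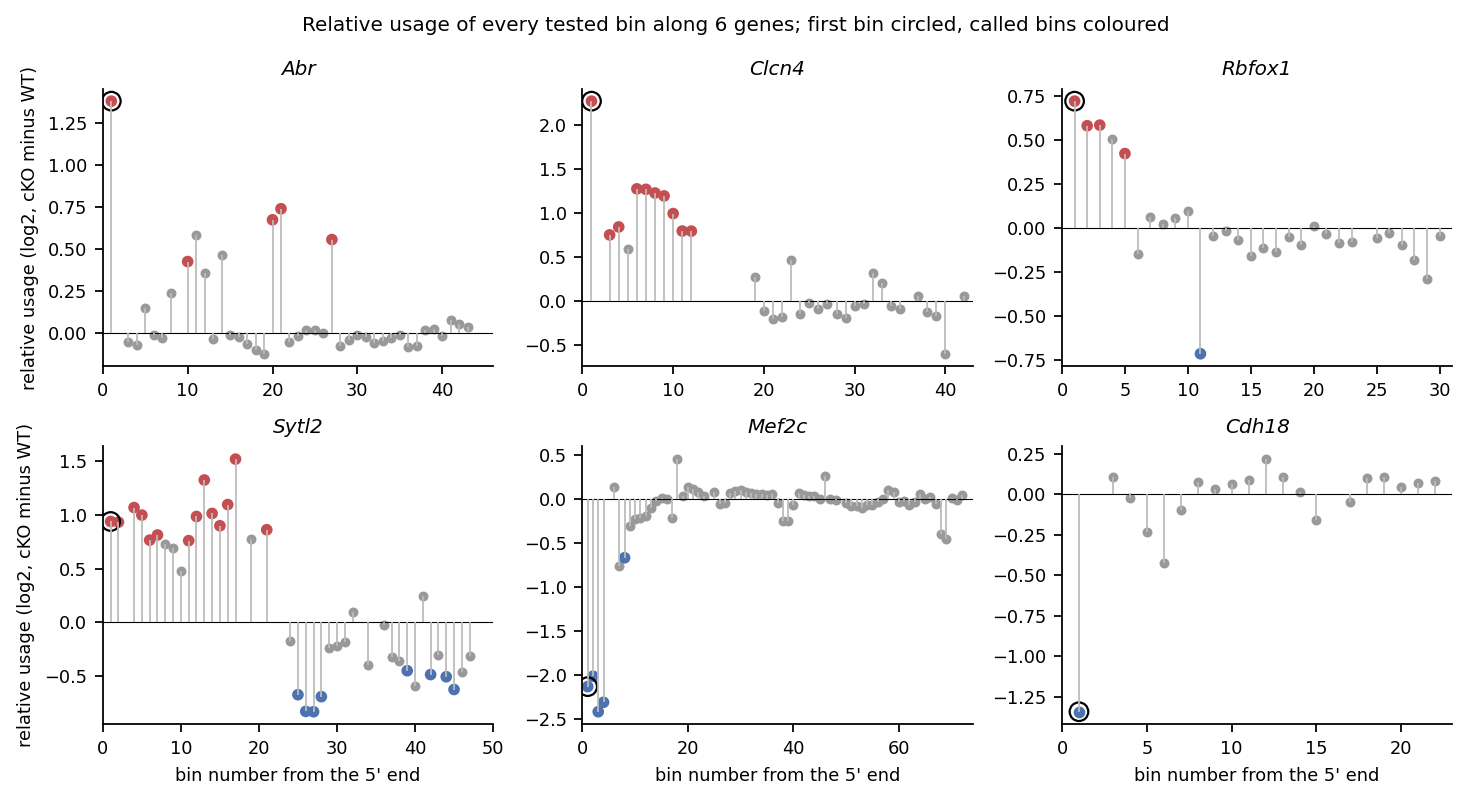
Relative usage (vertical axis, log2, Usp7 cKO minus Usp7 WT) of every bin tested along 6 genes, numbered from the 5' end (horizontal axis). The first bin is circled, bins called as used more are red and as used less blue; in Cdh18 only the first bin is called, and in Sytl2 the 5' bins lie above 0 and most later bins below.

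Spliced reads that leave the first bin are a second readout of the same choice, although they come from the same libraries. An intron at the 3' edge of the bin was present in the leafcutter table for 411 members (572 introns), and 537 such introns were tested against the other introns of their cluster. With edgeR's quasi-likelihood test 1 was called and 20 had an unadjusted p under 0.05, and 0.117% of all 30733 introns tested were called. The called intron leaves the first bin of Olfm2 (chr9:20675723-20746171). The deposited leafcutter label of this intron is cryptic_fiveprime, a cryptic 5' splice site, though that site is the 3' edge of the first bin. The intron took 18.9 ± 2.7% of its cluster's reads in Usp7 WT and 38.7 ± 2.48% in Usp7 cKO (SD, n = 5, log2 1.02, edgeR adjusted p = 0.0150). That call was lost without any of 5 single libraries (Usp7 cKO replicate 2 or 5, Usp7 WT replicate 1, 2 or 3), where 0 such introns were called and 13 to 23 had an unadjusted p under 0.05, and without the sex-discordant pair (0 called, 17 at an unadjusted p under 0.05).

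Of the 39 called members 9 had such an intron. As reads per 1000000 spliced reads (RPM), the Olfm2 junction had 15.8, 13, 13.6, 19.5 and 19.1 in Usp7 WT replicates 1 to 5 and 26.3, 33.9, 26.5, 24.2 and 26.8 in Usp7 cKO replicates 1 to 5. The Abr junction had 6.7, 4.48, 4.38, 5.27 and 6.62 in Usp7 WT and 7.08, 14.4, 14.2, 10.1 and 13.5 in Usp7 cKO, and Usp7 cKO replicate 1 was the closest to Usp7 WT. The Clcn4 junction had 0.957, 0.943, 1.84, 0.229 and 3.17 in Usp7 WT and 7.08, 5.25, 6.95, 8.47 and 8.84 in Usp7 cKO. In all 3, and in Dgkz (21.9 ± 3.08 and 30.1 ± 5.59 RPM), each Usp7 cKO library lay above each Usp7 WT library.

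The junction out of the Slc8a1 first exon went from 14.7 ± 2.66 to 8.23 ± 2.65 RPM and that of Kdm2a from 1.76 ± 1.1 to 4.55 ± 1.24 (SD, n = 5). In both, 1 Usp7 cKO library crossed 1 Usp7 WT library. The deposited leafcutter label of the Slc8a1 junction is unknown_strand. Relative to their clusters, the junctions of Abr, Clcn4, Dgkz, Kdm2a and Slc8a1 were not called, at log2 changes of 0.95 (Clcn4), 0.66 (Dgkz), 1.14 (Kdm2a) and -0.73 (Slc8a1). The smallest edgeR adjusted p of these was 0.204 (Abr). The main Pakap junction overlapped between the genotypes, at 18.9 ± 4.33 and 20.8 ± 2.40 RPM. So did those of Dpysl3 (1.18 ± 0.56 and 2.90 ± 1.26 RPM) and Gprasp1 (main junction, 43.9 ± 4.41 and 39.0 ± 5.81 RPM).

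**Figure D4:**
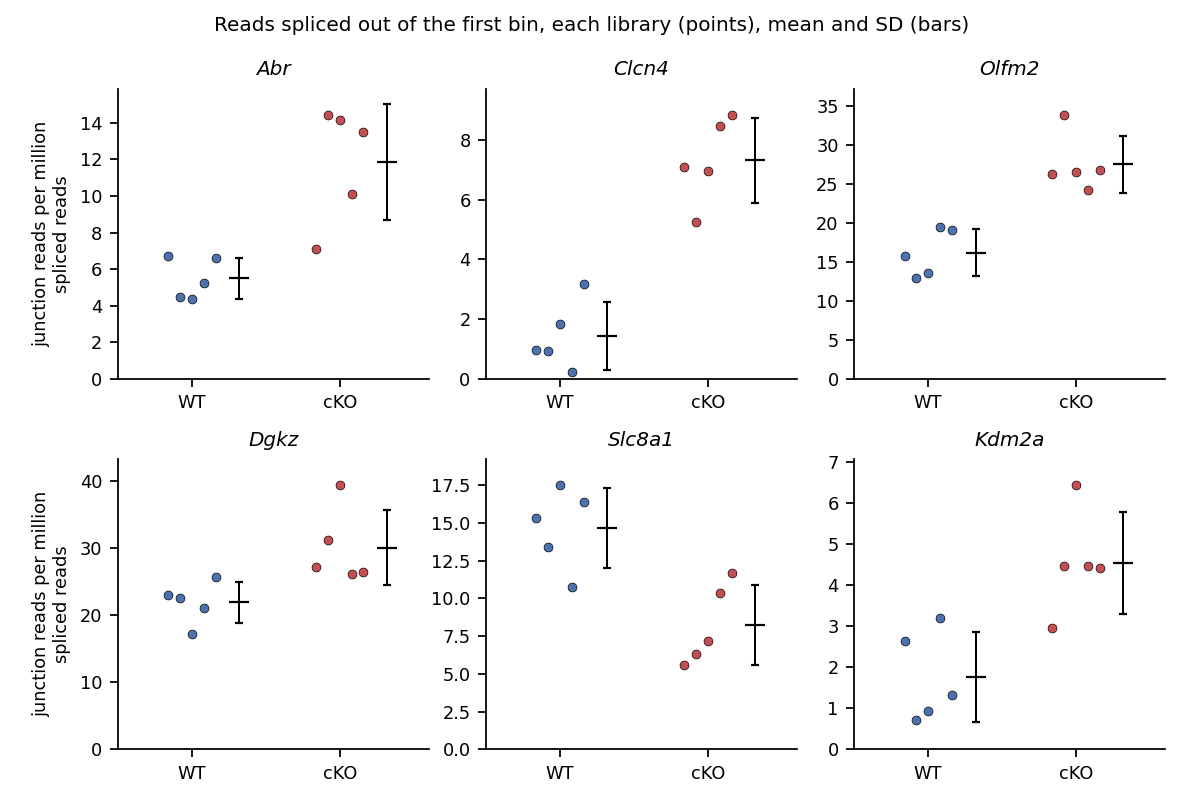
Reads spliced out of the first bin (vertical axes, RPM, from 0) in each library of Usp7 WT (blue) and Usp7 cKO (red) for 6 called members. Points are libraries and bars the mean and SD of 5; the genotypes are apart in Abr, Clcn4, Olfm2 and Dgkz.

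The level of the whole gene moved in some of these genes and not in others. Gene level was tested with limma on log2(TPM + 0.5), which understates the change of low genes. Of 4768 member genes tested, 1093 were called (601 higher, 492 lower in Usp7 cKO), and of all 27580 genes 13.9% were called, 9.22% higher and 4.67% lower. With TPM rescaled by median-of-ratios factors the split was 618 higher and 1044 lower, and 20.3% of all genes were called. Of the 39 genes with a called first bin, 24 were not called at the gene level, 12 fell and 3 rose. With TPM rescaled, 18 were not called, 17 fell and 4 rose.

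Where the first bin was used more, 9 genes fell at the gene level and 0 rose. Fmnl1 fell from 126 ± 3.98 to 82.2 ± 7.45 TPM (log2 -0.62, SE 0.0573, limma adjusted p = 9.55e-05), Sytl2 from 17.4 ± 2.06 to 11.6 ± 1.53 TPM (log2 -0.56) and Rbfox1 from 278 ± 20.8 to 220.3 ± 7.79 TPM (log2 -0.33). Abr, at 251 ± 12.2 and 239 ± 10.4 TPM, and Clcn4, at 67.5 ± 5.55 and 65.6 ± 2.52 TPM, were not called. The fall of Olfm2 was not called without any 1 of Usp7 cKO replicates 1, 4 and 5 and Usp7 WT replicates 1, 3, 4 and 5 (limma adjusted p up to 0.0946). A bin used more in a gene that fell can hold as many or fewer reads than before, since usage is relative to the rest of the gene. Per 1000000 bin counts of the library, the Fmnl1 first bin held a mean of 3.84 in Usp7 WT and 3.74 in Usp7 cKO. Fmnl1 was alone among the 9 in this. The first bin of Sytl2 went from 1.36 to 1.66 and that of Rbfox1 from 7.38 to 9.67. These differences were not tested.

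Where the first bin was used less, 3 genes fell (Mef2c, Cdh18 and Glp2r) and 3 rose, Kiss1r and Nsg1 among them. The rise of Nsg1 was not called with TPM rescaled (limma adjusted p = 0.108). Without the sex-discordant pair, Olfm2, Sh3gl2, Cdh18 and Nsg1 were among the genes not called any more at the gene level. Kiss1r rose from 7.03 ± 0.812 to 15.5 ± 1.61 TPM (log2 1.09, SE 0.099, limma adjusted p = 8.5e-05) as the share of its first bin fell. The Kiss1r first bin itself held more reads, with means of 2.32 in Usp7 WT and 3.77 in Usp7 cKO per 1000000 bin counts. It was used less only relative to the rest of the gene. The Nsg1 first bin held fewer (7.67 and 6.91). Neither difference was tested. Mef2c fell from 188 ± 8.05 to 141 ± 12.7 TPM (log2 -0.42, SE 0.064, limma adjusted p = 0.00206). The glutamatergic markers given above fell in the same tissue RNA, and the part of cell makeup in these gene levels was not tested.

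**Figure D5:**
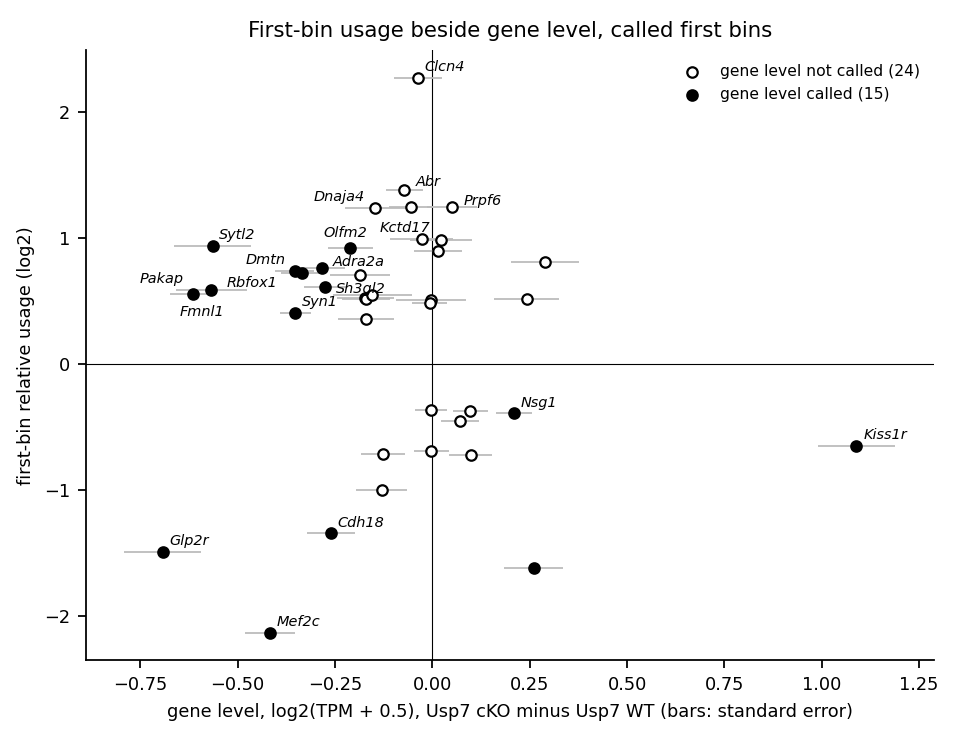
First-bin relative usage (vertical axis, log2) against gene level (horizontal axis, log2 of TPM + 0.5, Usp7 cKO minus Usp7 WT, bars are standard errors) for the 39 genes with a called first bin. Filled points are the 15 genes called at the gene level; Kiss1r lies far right, with a higher gene level and a lower first-bin usage.

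The genes closest to the deletion gave little to measure at the first bin. The 5'-most annotated bin had a mean count of 0 in Usp7, 0.1 in Cdkn1a, 0.5 in Ppil4 and 3.4 in Mdm2, so none of these was a member, and Neurod6 has only 2 bins. Trp53 was a member with a mean count of 11. Its first bin (chr11:69580359-69580401, plus strand) took 1.22, 1.88, 1.28, 0.951 and 1.86% in Usp7 WT and 1.75, 1.03, 0.901, 1.96 and 1.7% in Usp7 cKO. The groups overlapped over most of their range (exact two-sided permutation p = 0.952, smallest possible 0.00794; log2 0.01, edgeR adjusted p = 1.0).

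Of 75 genes listed as having more than 1 start in neurons, such as neurexins, Bdnf and the Shank scaffolds, 40 had a tested first bin. Of these, 3 were called, all used more (Abr, Rbfox1 and Cadps2), which is 7.50% beside 0.43% of all bins. Cadps2 was not called by DESeq2, and of the 3 the limma ratio test called Abr alone. The list was chosen with results of these data known, so this share is a description. Its median log2 change was 0.024, and 11 of the 40 had an unadjusted p under 0.05, among them Fgf14 (26.0 to 21.8%, log2 -0.25, edgeR adjusted p = 0.382) and Rtn1 (2.78 to 3.13%, log2 0.18, edgeR adjusted p = 0.797).

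Genes of transcription initiation and pausing were described at the gene level. Of 54 general transcription factors, RNA polymerase II subunits and pausing factors tested, 4 were called, beside 3832 of all 27580 genes (13.9%). A difference between these shares was not tested. The median log2 change of the 54 was 0.027 (0.062 over all genes). Taf6, a subunit of the TFIID complex, was 11, 13.1, 12, 11.1 and 13.1 TPM in Usp7 WT and 9.18, 8.87, 9.74, 8.48 and 8.63 TPM in Usp7 cKO, lower without overlap (log2 -0.40, SE 0.0785, limma adjusted p = 0.00742). The polymerase subunits Polr2i (30.5 ± 3.29 to 44.0 ± 6.23 TPM, log2 0.52) and Polr2h (17.4 ± 1.80 to 21.9 ± 1.49 TPM, log2 0.33) rose, and the pausing factor Nelfcd fell (41.9 ± 2.40 to 35.8 ± 2.28 TPM, log2 -0.22). The call of Polr2h was lost with TPM rescaled (limma adjusted p = 0.0530) and without any 1 of Usp7 cKO replicates 1, 3 and 4 and Usp7 WT replicates 1, 4 and 5 (up to 0.0608). That of Nelfcd was lost without any 1 of Usp7 cKO replicates 1, 3 and 4 and Usp7 WT replicates 1 and 2 (up to 0.0800). Without the sex-discordant pair Taf6 alone of the 4 stayed called (limma adjusted p = 0.0434), with Polr2h at 0.0528, Polr2i at 0.0560 and Nelfcd at 0.131.

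A difference in the genotype effect between the labelled sexes was not detectable in single first bins. The product of genotype and labelled sex was called in 0 of 4708 members with edgeR, where 94 had an unadjusted p under 0.05, and in 2 of 228098 bins (0.000877%). Each genotype has 2 libraries labelled male and 3 labelled female, among them the pair whose sex goes against the label. By Xist and Ddx3y, Usp7 cKO replicate 4 was the only male of its genotype, so the labelled balance does not hold. In the authors' deposited table, 33 of the 39 called members had an adjusted p under 0.05, as did 55 of 4772 members and 0.573% of all bins there, and the sign was the same in 39 of 39. That table comes from the same counts.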

How the data were processed

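Exon bin values are raw counts per DEXSeq counting bin, which the authors deposited, as the headers show. The authors deposited gene TPM and raw leafcutter intron counts too, as their headers show. The bin table holds the authors' DEXSeq log2 fold changes and p-values, which were used for comparison only. STAR 2.7.9a, Subread, SAMtools 1.10 and GRCm38 appear in the submitters' processing notes, with no roles. The sources used here give neither the counting strand nor the annotation version. Of the 4774 members, 4706 had a 5' edge on an exon edge of GENCODE M21. In Usp7 WT replicate 1 all intron counts were even, and these were divided by 2.

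The usage tests of bins and introns used edgeR 4.0.16 (glmQLFit, diffSpliceDGE, TMM; R 4.3.3) on features with a mean count of at least 10 (bins) or 5 (introns) and at least 2 such features per gene or cluster. Gene level was tested with limma 3.58.1 (trend, robust) on log2(TPM + 0.5) at a mean of at least 0.5 TPM. Labelled sex was the covariate, tests were two-sided, and Benjamini-Hochberg adjustment over all features used a threshold of 0.05. The labels describe 10 animals in litter- and sex-matched pairs, which they do not name. On simulated data with known changes in 228098 bins, 24% of 1.5-fold and 67% of 2-fold changes were recovered. Over 30733 introns 35% of 2-fold changes were recovered, and over 27580 genes 58%. Alternatives were DESeq2 1.42.0, a limma ratio test, other scaling, filters and covariates, and libraries left out.

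The named-gene rule took the first bins of Usp7, Neurod6, Trp53, Mdm2, Cdkn1a and Ppil4. It also took called members with a mean count of at least 30 by the largest change, 12 each way in log2 and 6 each way in share, called members of the promoter list and 4 initiation genes. Some members counted here are not reported by name. Members and lists were chosen with earlier results of these data known. Tables and plots were made in Python 3.11.15 (matplotlib 3.10.9, pandas 2.3.3, numpy 2.4.6).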

Additional observations from a re-analysis of the deposited data

Results flagged for a closer look

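In 82 groups of 5 libraries (the share of each called first bin and of Trp53 in each genotype, and the summed share), 2 held a library far from the others by Dixon's ratio at a critical value of 0.71. Chance gives such a value in about 1 group of 20. In Dmtn, Usp7 cKO replicate 5 had 4.09% of the gene's counts in the first bin, and the next highest Usp7 cKO library had 3.23%. In Lin7a, Usp7 cKO replicate 1, a sex-discordant library, had 0.570%, and the next lowest had 0.779%.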

How the results depend on the processing

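Leaving out 1 library at a time gave 26 to 34 called first bins, 16 to 25 used more and 7 to 11 used less, against 39, 26 and 13. DESeq2 called 19 (14 more, 5 less), 18 of them among the 39, and the limma ratio test called 3 (2 more, 1 less), namely Abr, Sytl2 and Kiss1r. Without the sex-discordant pair 24 were called (17 more, 7 less). Member genes called at the gene level ranged from 815 to 1030 (436 to 637 higher, 328 to 548 lower) with 1 library left out, and were 624 (307 higher, 317 lower) without the pair and 1662 (1044 lower) with TPM rescaled. Called introns that leave a first bin ranged from 0 to 2, with 0 without the pair and 2 without Usp7 WT replicate 4. The share of Trp53's first bin, Usp7 cKO minus Usp7 WT, ranged from -0.0932 to 0.171 percentage points with 1 library left out. The cause of these shifts was not tested; fits with fewer libraries have fewer degrees of freedom.

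With the number that ends the sample title as a replicate block, 45 first bins were called (38 of the 39), 1243 member genes and 1 intron. Same-numbered libraries correlated at -0.0499 to 0.0408 in their deviations from the group means, so the number is not shown to pair animals. Scaling by RLE factors gave the same 39 calls. Over all alternatives of the first bins named, 520 values kept their side of the threshold, 189 lost the call and 0 reversed. Bins with low counts limit what can be seen, since 1969 of the 4708 members tested had a mean count under 30.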
